A study of Homo sapiens with 2 samples.

Results

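Endoplasmic reticulum (ER) chaperone, unfolded protein response and ER-associated degradation (ERAD) genes were examined in HepG2 cells that received FFAs alone or together with 9-cis-RA. The 45 genes were taken by symbol from a list of ER stress sensors, chaperones, disulfide isomerases and ERAD components. This list was chosen with earlier results of these data known. All 45 genes were found among the 60623 gene entries. Of these, 44 reached 10 counts in the 2 libraries together and were compared, as were 20431 genes in all. The study gives HepG2 as a human hepatocellular carcinoma line. The cells are called wild-type here only in that no engineered change is named for them. Both groups received 1 mM free fatty acids (FFAs, oleic and palmitic acid bound to albumin) for 24 h. The FFA + 9-cis-RA group also received 10 μM 9-cis-retinoic acid, which the FFA group did not. The study's methods give DMSO as its solvent, at an equal level in every group. 9-cis-retinoic acid is a ligand of RXR that also activates the retinoic acid receptors. There is 1 library per group, and the sample labels used here give no batch for either. A group without FFA was not analysed here, so the values bear on the addition of 9-cis-RA and not on the FFA load itself.

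Proteins that enter the secretory pathway are folded in the ER by Hsp70- and Hsp90-type chaperones, by the lectin chaperones that hold glycoproteins, and by oxidoreductases that form and rearrange disulfide bonds. When unfolded proteins build up, the sensors IRE1 (gene ERN1), PERK (EIF2AK3) and ATF6 start the unfolded protein response, which slows translation and raises the transcription of chaperone and ERAD genes. ERAD draws misfolded proteins back to the cytosol for the proteasome. Hepatocytes secrete large amounts of plasma protein, and saturated fatty acids are known to activate the response in liver cells.

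Total counts were 60821539 with FFA and 57669670 with FFA + 9-cis-RA. Counts were divided by size factors, and each log2 fold change is FFA + 9-cis-RA against FFA after a pseudocount of 1. The difference has no replicate check with 1 library per group, and p-values are therefore not given. The exact 95% intervals in parentheses cover counting error only and compare these 2 libraries, not the conditions. In RNA from a whole culture, a lower level cannot be divided into fewer cells with the transcript and less transcript per cell. As label checks, CYP26A1, a retinoic acid hydroxylase, had 4 and 709 counts, RARB 6 and 46, and DHRS3 1126 and 1999. All 11 hepatocyte and HepG2 markers were counted, from TTR with 341 and 278 counts to SERPINA1 with 294592 and 296345. Markers of other liver cell types summed to 121 and 74.4 CPM, and LYZ with 5883 and 3332 counts and ACTA2 with 1186 and 773 made up most of this. Their log2 fold changes ran from -0.79 for PECAM1, with 52 and 29 counts, to 1.44 for CD68, with 5 and 15. LYZ at -0.79, VWF at -0.61, CDH5 at -0.60 and ACTA2 at -0.59 were below -0.5 too. PTPRC was at 0 in both libraries, and COL1A1 had 1 and 2 counts. The part of these markers in the values below was not tested.

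The unfolded protein response acts on DNA through the ER stress response element (ERSE), which NF-Y and ATF6 or XBP1 bind. It is written here as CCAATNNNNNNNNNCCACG. A second form, ERSE-II, is ATTGGNCCACG. Exact matches on both strands were searched in RefSeq promoter windows (GRCh38.p14) from 250 bases before to 50 bases after each annotated start. Windows were given for 41 of the 45 genes and for 27305 genes in all. An ERSE was found for 8 of the 41 ER genes, or 19.5%, and for 25 of all 27305 genes, or 0.0916%. ERSE-II was found for 3 of the 41, or 7.32%, and for 19 of all genes, or 0.0696%. Because values below are set against these letters, windows that carry them are shown on the strand of the gene. They are those of HSPA5, HSP90B1, CALR, PDIA6, ERO1B, XBP1, SDF2L1 and HERPUD1. CANX, CRELD2 and HYOU1 also have a match and are described after the list. Capitals mark the fixed letters of the element, and a match on the opposite strand reads CGTGG first. Coordinates are 1-based, and the distance is that of the first fixed base from the annotated RefSeq start. This start can differ from the outer ends of the counted gene, which the spans below give. The HSP90B1 windows, for example, lie inside the span of that gene.
HSPA5, chr9:125241388-125241412, minus strand, 66 bases before the start: tcaCCAATcggcggcctCCACGacg
HSP90B1, chr12:103930213-103930237, plus strand, 194 bases before the start: tgaCCAATcggaaggagCCACGctt
HSP90B1, chr12:103930318-103930342, plus strand, 89 bases before the start: gtgCGTGGtgcggcgcgATTGGtgg
CALR, chr19:12938381-12938405, plus strand, 225 bases before the start: acgCGTGGtcgaccatcATTGGtcg
PDIA6, chr2:10812850-10812874, minus strand, 86 bases before the start: ggaCCAATgagccgcagCCACGgct
ERO1B, chr1:236282180-236282204, minus strand, 243 bases before the start: ccgCGTGGtcccgcctcATTGGccg
XBP1, chr22:28800600-28800624, minus strand, 52 bases before the start: tggCCAATcgcggagggCCACGacc
SDF2L1 (ERSE-II), chr22:21642111-21642127, plus strand, 188 bases before the start: aagCGTGGaCCAATcaa
HERPUD1 (ERSE-II), chr16:56932022-56932038, plus strand, 117 bases before the start: ccgATTGGgCCACGttg

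CANX, with starts 9, 151 and 189 bases after the same element, and CRELD2 were the other genes with an ERSE. HYOU1 had 2 matches to ERSE-II, 79 and 185 bases before its start. An exact match is a description of these letters and not a site of binding.

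The ER genes as a whole differed little between the libraries, as did most genes with at least 1000 counts. Of the 44 compared, 24 were higher and 20 lower in the FFA + 9-cis-RA library. Over all 20431 genes compared, 9751 were higher and 10680 lower. The middle value of their log2 fold changes was 0.062 and the quartiles were -0.13 and 0.16, against a median of -0.020 over all genes compared. A log2 fold change above 0.5 was found for 1 of them, ERO1B, against 9.03% of all genes compared. None was below -0.5, where 14.3% of all genes lay. Genes whose counts in the 2 libraries add up to 1000 or more are called well-counted, and they were 10298 in all and 43 of the ER genes, without ERO1B and DERL3. Of these 43, 0 lay above 0.5 and 0 below -0.5, against 1.73% and 4.38% of all well-counted genes. None of the 44 passed 1 in either direction, the fold limit used in the study, against 3.37% of all genes above it and 4.90% below -1. Of the 10298 well-counted genes, 21 lay above 1 and 68 below -1, so none among 43 such genes is unremarkable. The counting interval lay above 0 for 21 and below 0 for 18 of the 44. For the 43 well-counted ER genes these numbers were 20 and 18, against 34.4% and 34.7% of all well-counted genes. At this depth, differences of a few percent leave 0 outside the interval, and how much 2 cultures of the same treatment differ was not measured. Within 0.25 of 0 lay 33 of the 43 well-counted ER genes, or 76.7%, and 7704 of the 10298 well-counted genes, or 74.8%. These shares are close.

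**Figure D1:**
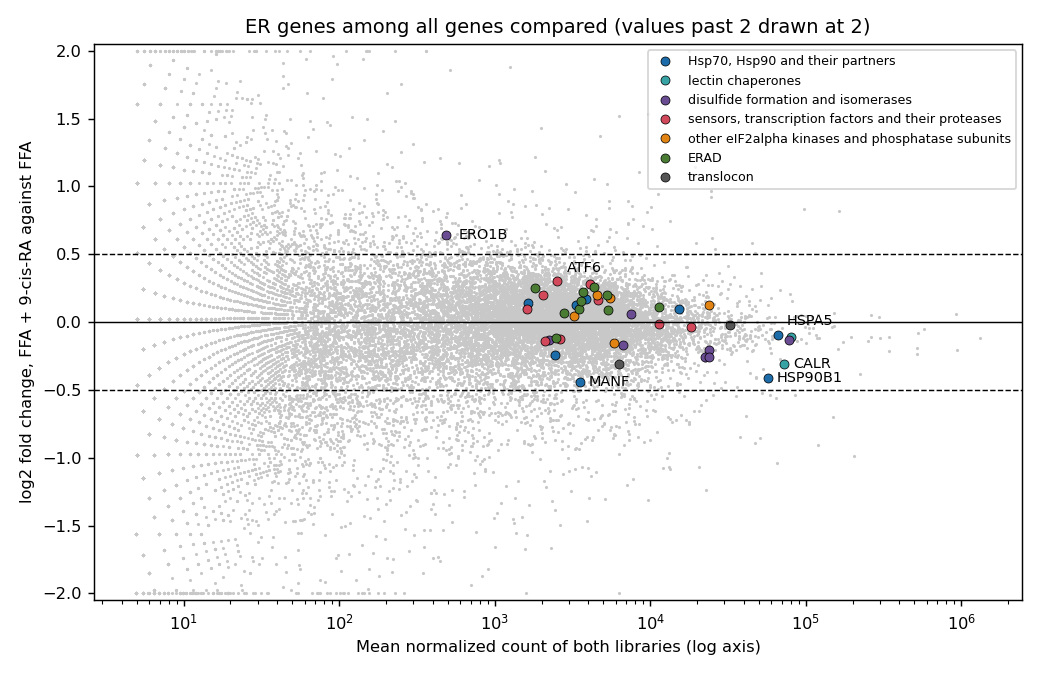
Log2 fold change (FFA + 9-cis-RA against FFA) against the mean normalized count of both libraries (log axis) for the 20431 genes compared; gray points are other genes, colored points the 44 ER genes by role, dashed lines stand at -0.5 and 0.5, and values past 2 are drawn at 2. Of the ER genes, ERO1B alone lies outside the dashed lines, and the labelled HSPA5, CALR, HSP90B1 and MANF lie below 0.

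The roles went in different directions within this narrow range. The 18 chaperones and disulfide enzymes had a median log2 fold change of -0.13, and 12 of them were lower in the FFA + 9-cis-RA library. The 10 ERAD genes compared had a median of 0.13, and 9 of them were higher. Of the 10298 well-counted genes, 5278 were higher and 5020 lower. Sensors with their transcription factors and proteases had a median of 0.097, and the other eIF2α kinases and phosphatase subunits one of 0.13. Because the chaperones are far more abundant, the summed normalized counts of the 45 genes changed by -8.12% with 9-cis-RA, although more of the genes were higher, against -3.35% for all gene entries. The summed counts of the 18 chaperones and disulfide enzymes changed by -12.2% and those of the ERAD genes by 9.89%. The 45 genes took 1.12% of all counts with FFA and 1.06% with FFA + 9-cis-RA.

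**Figure D2:**
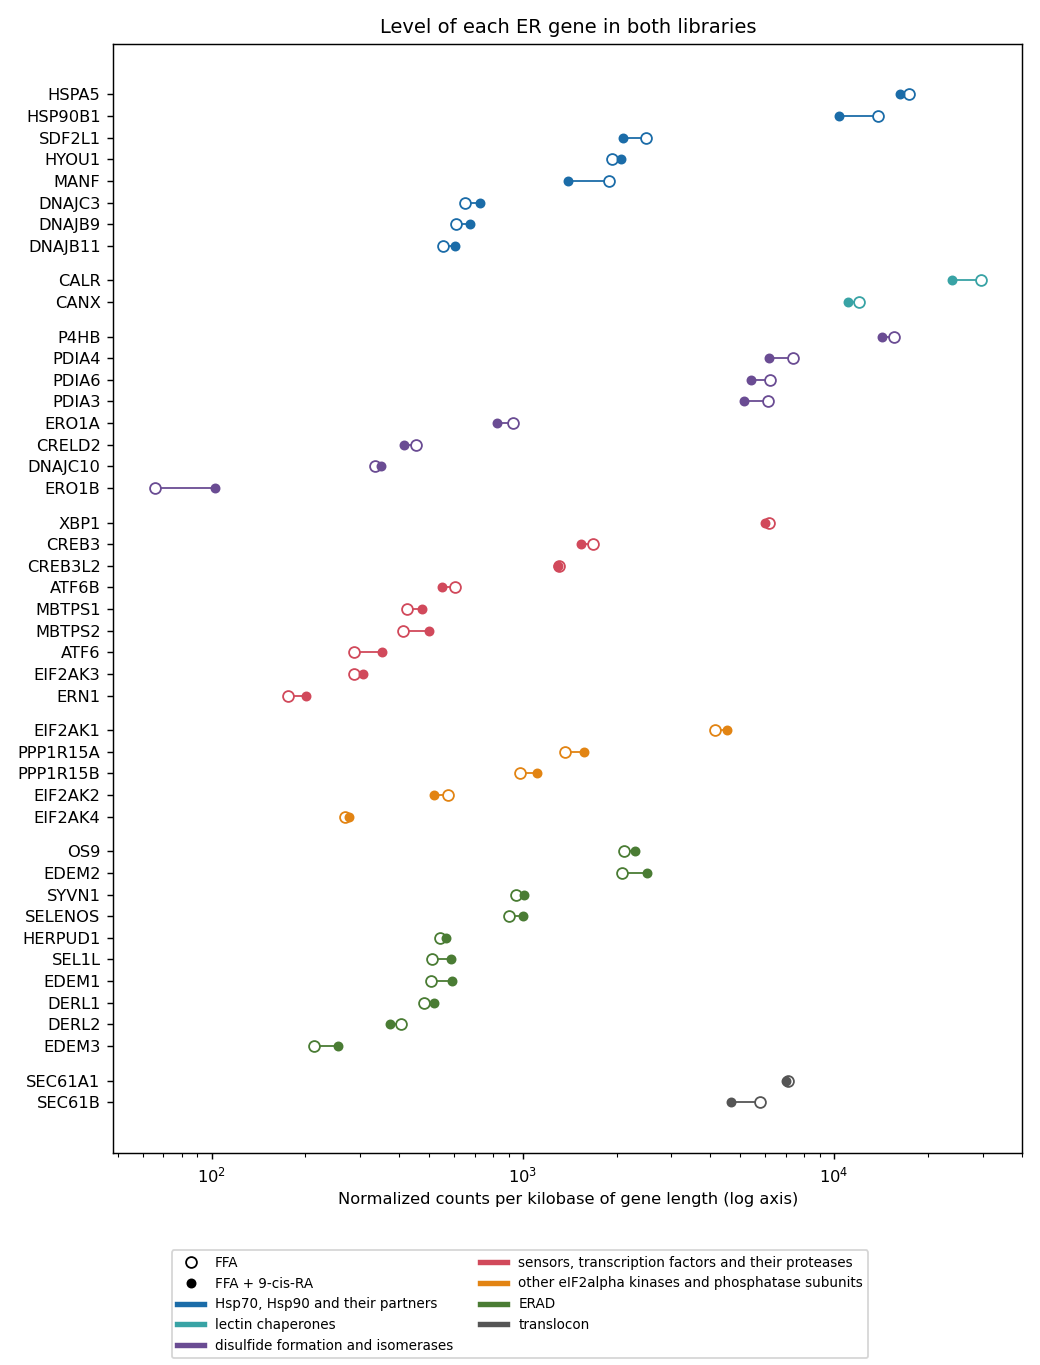
Normalized counts per kilobase of gene length (log axis) of the 44 ER genes compared, ordered by role and by level, with open circles for FFA and filled circles for FFA + 9-cis-RA (1 library each). Levels run from 65.5 for ERO1B to 29670 for CALR in the FFA library, and the filled circles lie to the left for most abundant chaperones and to the right for most ERAD genes.

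Among the Hsp70- and Hsp90-type chaperones and their partners, 4 were lower and 4 higher. HSPA5 encodes BiP, the main Hsp70 of the ER and the usual marker of the unfolded protein response, and spans 125234853 to 125241343 on chromosome 9. Its counts were 68669 with FFA and 63043 with FFA + 9-cis-RA, which gives a log2 fold change of -0.096 (-0.11 to -0.080), a change of -6.42% after scaling. HSP90B1 encodes GRP94, the Hsp90 of the ER, spanning 103930107 to 103953645 on chromosome 12. Its counts were 65358 and 48294, giving a log2 fold change of -0.41 (-0.43 to -0.39), a change of -24.7%. BiP and GRP94 mRNA, which share the ERSE shown above, thus differed in size: the 2 intervals do not overlap.

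MANF, a small secreted and ER-retained factor induced by ER stress, had the lowest value of all 44 genes. It spans 51385291 to 51389397 on chromosome 3, with 4088 and 2956 counts, which gives a log2 fold change of -0.44 (-0.51 to -0.37). SDF2L1, a partner of the ER J proteins, had 2654 and 2204 counts, which gives a log2 fold change of -0.24 (-0.32 to -0.16). The J proteins of this group, which stimulate BiP, were higher. DNAJC3, also known as p58IPK, had 3666 and 4037 counts at 0.17 (0.10 to 0.23). DNAJB9, or ERdj4, had 1563 and 1694 counts at 0.14 (0.044 to 0.24), and DNAJB11, or ERdj3, had 3205 and 3428 at 0.12 (0.055 to 0.19). Another gene overlaps 7.87% of the exonic bases of DNAJB11 on the same strand, where fragments are not counted. HYOU1, a large Hsp70 relative that exchanges the nucleotide of BiP, had 15025 and 15795 counts at 0.10 (0.067 to 0.13). The median of these 8 genes was 0.0020, which turned below 0 when a length or GC trend was removed, and it covers a split between the 4 lower genes, from -0.44 to -0.096, and the 4 higher ones, from 0.10 to 0.17.

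Both lectin chaperones were lower. CALR encodes calreticulin, the soluble lectin chaperone and a calcium store of the ER, spanning 12938578 to 12944489 on chromosome 19. It was the most abundant ER gene per length in both libraries, ranking 48 and 60 among all gene entries, with 29670 and 23887 normalized counts per kilobase. Its raw counts were 81298 and 64212, a log2 fold change of -0.31 (-0.33 to -0.30). CANX encodes the membrane-bound counterpart calnexin and had 84417 and 76559 counts, which gives a log2 fold change of -0.11 (-0.13 to -0.099). The level of CALR relative to CANX per length was 2.47 with FFA and 2.15 with FFA + 9-cis-RA.

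The disulfide isomerases stood close together. P4HB, the founding protein disulfide isomerase, had 82242 and 73626 counts, which gives a log2 fold change of -0.13 (-0.15 to -0.12). PDIA3, the partner of the lectin chaperones also called ERp57, had 26100 and 21471 counts at -0.25 (-0.28 to -0.23). PDIA4, or ERp72, had 24642 and 20171 counts at -0.26 (-0.29 to -0.23), and PDIA6, or P5, had 25819 and 21919 at -0.21 (-0.23 to -0.18). The intervals of PDIA3 and PDIA4 overlap, and that of P4HB lies above those of the other 3. CRELD2, a small ER protein induced by stress, had 2366 and 2122 counts at -0.13 (-0.21 to -0.044). DNAJC10, a J protein that reduces disulfides of ERAD clients, went the other way with 7410 and 7582 counts, at 0.061 (0.014 to 0.11).

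The 2 ER oxidases that recharge the isomerases moved apart. ERO1A, the general form, spans 52639915 to 52695900 on chromosome 14, with 7091 and 6189 counts, which gives a log2 fold change of -0.17 (-0.22 to -0.12). ERO1B, the form known for its high level in secretory tissues such as the pancreas, spans 236215101 to 236281958 on chromosome 1. Its counts were 383 and 588, giving a log2 fold change of 0.64 (0.46 to 0.84), or 56.5% more. ERO1B was the least abundant of the 44 genes per length, and its interval reaches below 0.5. ERO1A was 14.2 times as abundant per length as ERO1B with FFA and 8.07 times with FFA + 9-cis-RA.

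**Figure D3:**
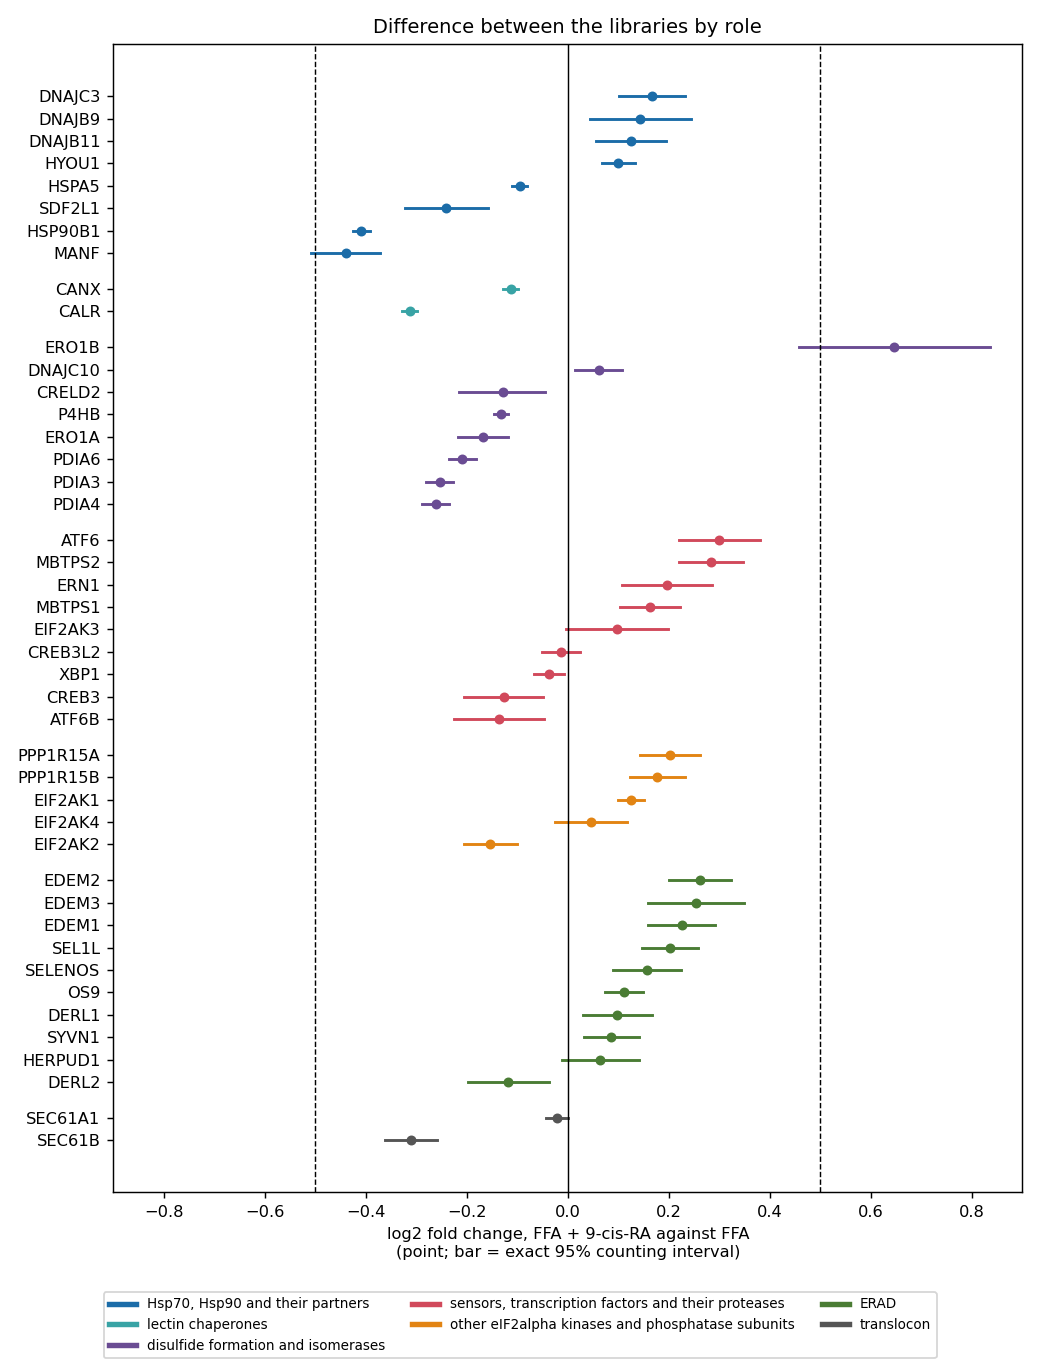
Log2 fold change (FFA + 9-cis-RA against FFA) of the 44 ER genes compared, by role, with the exact 95% counting interval as a bar and dashed lines at -0.5 and 0.5. The isomerases lie between -0.26 and -0.13, 9 of 10 ERAD genes lie above 0, and ERO1B stands apart at 0.64.

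Transcripts of the 3 stress sensors were all higher in the FFA + 9-cis-RA library, by small amounts. ATF6, the sensor that is cut in the Golgi to release a transcription factor, spans 161766320 to 161964070 on chromosome 1. It had 2278 and 2752 counts, which gives a log2 fold change of 0.30 (0.22 to 0.38), the highest among the sensors and factors. ERN1, which encodes the IRE1 nuclease, had 1929 and 2169 counts at 0.20 (0.11 to 0.29). EIF2AK3, which encodes the kinase PERK, had 1581 and 1659 counts at 0.097, and its interval included 0 (-0.0031 to 0.20).

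The proteases that cleave ATF6 were higher too. MBTPS2, the site-2 protease on the X chromosome, had 3707 and 4425 counts at 0.28 (0.22 to 0.35), and MBTPS1, the site-1 protease, had 4403 and 4835 at 0.16 (0.10 to 0.22). These enzymes also cleave the SREBP factors of lipid synthesis. Other genes overlap 13.4% of the exonic bases of MBTPS2 on the same strand. ATF6B, the ATF6 relative, differed in direction with 2216 and 1978 counts at -0.14 (-0.22 to -0.048), and 9.92% of its exonic bases overlap other genes. The level of ATF6 relative to ATF6B per length was 0.474 with FFA and 0.642 with FFA + 9-cis-RA.

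XBP1, the transcription factor that IRE1 activates by splicing its mRNA, spans 28794555 to 28800597 on chromosome 22. It had 18824 and 17995 counts, which gives a log2 fold change of -0.037 (-0.067 to -0.0078). Counts per gene do not tell the spliced from the unspliced form, nor do they show cleavage of ATF6 or phosphorylation of PERK. The membrane-bound factors CREB3, with 2778 and 2495 counts, and CREB3L2, with 11598 and 11271, stood at -0.13 (-0.21 to -0.049) and -0.014 (-0.051 to 0.024). For CREB3L2 no difference was detectable at this depth. XBP1, CREB3L2 and the translocon gene SEC61A1 turned to values above 0 when total counts set the scale.

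Phosphorylation of eIF2α slows translation, and 4 kinases carry it out. Besides PERK, EIF2AK1 (the heme-regulated kinase HRI) had 23052 and 24672 counts at 0.13 (0.10 to 0.15), and EIF2AK4 (the amino acid sensor GCN2) had 3236 and 3277 at 0.046 (-0.025 to 0.12). EIF2AK2, the RNA-activated kinase PKR of the interferon response, was lower with 6256 and 5516 counts at -0.15 (-0.21 to -0.10). EIF2AK1 was 14.5 times as abundant per length as EIF2AK3 with FFA and 14.8 times with FFA + 9-cis-RA.

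The phosphatase subunits that reverse the mark were higher together. PPP1R15A, the stress-induced subunit GADD34, had 4241 and 4787 counts at 0.20 (0.14 to 0.26), and PPP1R15B, the constitutive subunit CReP, had 5206 and 5773 at 0.18 (0.12 to 0.23). Their relative level per length was 1.40 and 1.42. A list of 12 genes, made of ATF4, the factor translated when eIF2α is phosphorylated, and 11 genes known as outputs of PERK and ATF4, had a median of 0.25. Of the 12, 9 were higher, against 9751 of all 20431 genes compared. ATF4 itself had 40678 and 39858 counts at -0.0017, and DDIT3, which encodes the stress factor CHOP, had 3300 and 2767 at -0.23.

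In ERAD, 9 of 10 genes were higher. EDEM1, EDEM2 and EDEM3 trim mannose from glycoproteins marked for disposal, and all 3 were higher. EDEM2, spanning 35115364 to 35147336 on chromosome 20, had 3974 and 4674 counts at 0.26 (0.20 to 0.32). EDEM3 had 1681 and 1967 counts at 0.25 (0.16 to 0.35), and EDEM1 had 3443 and 3948 at 0.23 (0.16 to 0.29). The 3 intervals overlap, although EDEM2 was by far the most abundant per length, with 2089 normalized counts per kilobase against 506.2 for EDEM1 and 213.7 for EDEM3 in the FFA library.

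The ubiquitin ligase complex that receives these clients followed with smaller differences. SEL1L, its scaffold, had 4923 and 5558 counts at 0.20 (0.15 to 0.26), and SYVN1, the ligase HRD1 itself, had 5263 and 5481 at 0.086 (0.031 to 0.14). OS9, the lectin that hands over glycoproteins, had 11061 and 11728 counts at 0.11 (0.075 to 0.15). SELENOS, a selenoprotein that recruits the p97 ATPase, had 3417 and 3738 at 0.16 (0.090 to 0.22). HERPUD1, a stress-induced organizer of the complex that carries the ERSE-II shown above, had 2759 and 2829 counts at 0.064 (-0.012 to 0.14), an interval that includes 0.

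The derlins, which help to move clients across the membrane, were mixed. DERL1 had 3390 and 3558 counts at 0.097 (0.029 to 0.17), whereas DERL2 had 2619 and 2368 at -0.12 (-0.20 to -0.037) and was the lone ERAD gene below 0. DERL3 had 0 counts in both libraries, which allows up to 3 counts, or 0.0493 and 0.0520 CPM. In the Sec61 channel, through which most secretory proteins enter the ER, the small subunit SEC61B had 7048 and 5574 counts at -0.31 (-0.36 to -0.26). The pore subunit SEC61A1 had 33266 and 32158 counts, and its value of -0.021 had an interval that included 0 (-0.043 to 0.00092).

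Abundance and gene length moved with these values. Over the 44 ER genes, the log2 fold change had a Pearson r of -0.52 and a Spearman rho of -0.40 with the log2 mean normalized count, and 0.40 and 0.42 with log2 length. The points share the same 2 libraries, and genes are not replicates. Over the 10298 well-counted genes the values were -0.025 and -0.054 for abundance and 0.16 and 0.20 for length. The 44 ER genes include ERO1B, which is not well-counted and had the lowest mean count and the highest log2 fold change. Of the 10 ER genes with a mean of at least 20000 normalized counts, 9 were lower, with a median of -0.17. The 368 genes of that abundance had a median of -0.053 and quartiles of -0.16 and 0.042, so most of them were lower too. Among well-counted genes under 2000 bases the median was -0.10 for all 843 and -0.18 for the 4 ER genes.

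After removal of the loess trend on abundance, the chaperones and disulfide enzymes had a median of -0.12 and ERAD genes one of 0.13. After removal of the trend on length, the medians were -0.15 and 0.12. The numbers of lower genes stayed at 12 of 18 and 1 of 10 under both. With the abundance trend removed, HSPA5 stood at -0.037, CANX at -0.049, P4HB at -0.069, CALR at -0.25 and HSP90B1 at -0.35.

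The genes with an ERSE were mostly on the lower side. Of the 8, 7 were lower, with a median log2 fold change of -0.12 over all 8. Of all 20431 genes compared, 10680 were lower. ERO1B, with 0.64, was the exception. The 33 other ER genes with a promoter window had a median of 0.097. Of the 3 genes with ERSE-II, SDF2L1 was lower, and HYOU1 and HERPUD1 were at 0.10 and 0.064. Outside the ER genes examined, 17 genes carried an ERSE and 8 of these were compared, of which 7 were lower, with a median of -0.14. For ERSE-II, 13 genes outside the ER genes examined were compared, of which 10 were lower and 3 higher, with a median of -0.083. Of the lower ones, CAMTA1, CLEC4F, GYS1, NUCB1 and RAD9A had intervals that included 0, as did the higher gene SHCBP1. The lower ERSE genes include SERP1, a stress-associated partner of the Sec61 channel, at -0.11 and FICD, an enzyme that modifies BiP, at -0.16 with an interval that included 0. ZNF17, another of the lower ERSE genes, stood at -0.0039, and its interval included 0 too. ALG12 shares its element with CRELD2, and EIF2A with SERP1, so these genes are not independent of each other. Of the 8 ERSE genes, 5 (HSPA5, HSP90B1, CALR, CANX and PDIA6) have a mean above 20000 normalized counts, and the element and the abundance cannot be told apart here. P4HB, PDIA4 and SEC61A1 have means above 20000 too but no ERSE match in their windows. They stood at -0.13, -0.26 and -0.021, and the interval of SEC61A1 included 0. PDIA3 and EIF2AK1, with means above 20000 but no window given, stood at -0.25 and 0.13. The part of the element or of abundance in these values was not tested.

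**Figure D4:**
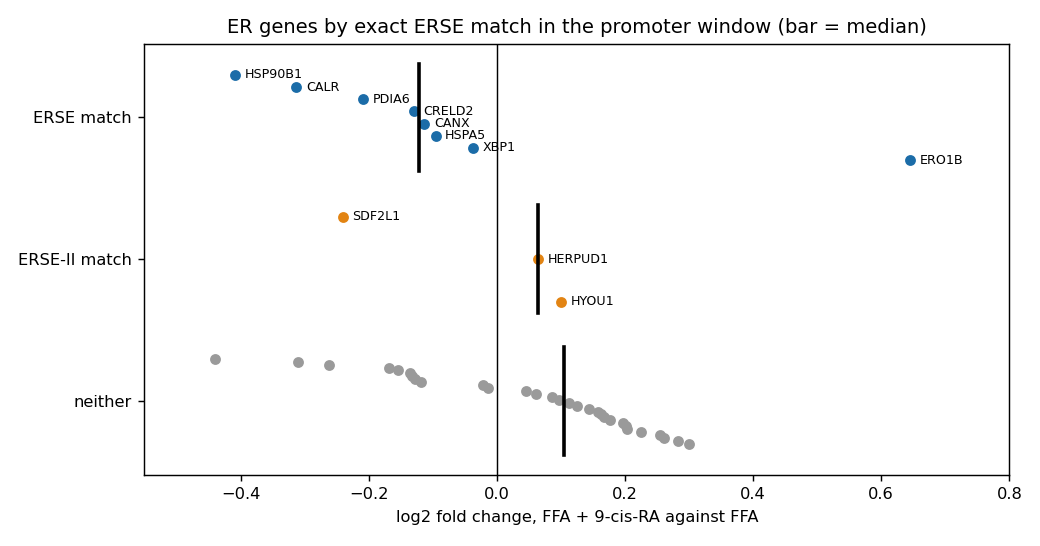
Log2 fold change (FFA + 9-cis-RA against FFA) of the ER genes with a promoter window, split by an exact ERSE match (8 genes), an ERSE-II match (3 genes) or neither (30 genes), with the median as a black bar. The ERSE genes lie below 0 except ERO1B at 0.64, and the genes with neither element span both sides.

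The core of the UPR element, TGACGTGG, was found for 2 of the 41 genes, HYOU1 and DNAJC10, and for 0.927% of all genes. The core of the ATF4 element, TTGCATCA, was found for HERPUD1 and PPP1R15B and for 1.08% of all genes. The values of these 4 genes ran from 0.061 to 0.18. The UPR core of HYOU1 lies 188 bases before its start and overlaps its second ERSE-II match.

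Other genes of the same pathways gave a like picture of small differences. Of 22 further folding and glycoprotein quality control genes, 11 were higher and 11 lower, with a median of 0.0089 and none past 0.5. Their values ran from TXNDC5 at -0.31, with 134 and 106 counts, to TXNDC12 at 0.34, with 690 and 858. The interval of TXNDC5 included 0 (-0.69 to 0.068). PPIB, an ER cyclophilin, stood near the lower end with 21445 and 17039 counts at -0.30. Both TXNDC genes encode thioredoxin-like proteins of the ER.

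Of 28 further ERAD genes, 15 were higher and 13 lower, with a median of 0.028, so the direction shared by 9 of the 10 ERAD genes above was not seen in this longer list. NPLOC4, a cofactor of p97, was the highest with 7456 and 9074 counts at 0.31. UBXN8, which tethers p97 to the ER membrane, was the lowest and the lone gene past 0.5, with 903 and 535 counts at -0.73 (-0.88 to -0.57).

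The 27 genes of translocation, signal peptidase and oligosaccharyl transfer had a median of -0.066, and the median was 0.024 with scaling by TPM. Lower were 18 of the 27, against 5020 of the 10298 well-counted genes. SEC61G, the small gamma subunit of the Sec61 channel, was above 0.5 with 2267 and 3207 counts at 0.53 (0.45 to 0.61). The channel subunits thus stood at 0.53, -0.021 and -0.31 for SEC61G, SEC61A1 and SEC61B. SEC61A2, the alternative alpha subunit, had 779 and 801 counts at 0.068, with an interval that included 0 (-0.076 to 0.21). SEC11C, a catalytic subunit of signal peptidase, was the lowest at -0.48 with 2647 and 1856 counts, and the catalytic oligosaccharyl transferase subunits STT3A and STT3B were at -0.30 and -0.37.

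Of 18 genes of transport between ER and Golgi, 9 were higher and 9 lower, with a median of -0.0093 that turned above 0 under TMM, total-count and TPM scaling. KDELR3, a receptor that returns escaped chaperones to the ER, was the lowest with 3798 and 2701 counts at -0.46, while KDELR1 and KDELR2 stood at -0.16 and 0.0045. SEC24C, a COPII coat subunit, was the highest at 0.18. Of 14 further ER-linked factors and sensor partners, 7 were higher and 7 lower, with a median of 0.0089 that changed sign with a stricter count minimum or with the abundance or GC trend removed. The cell death factor BAX was the lowest, with 9740 and 6949 counts at -0.46, and CREB3L3, the liver form of the membrane-bound factors, had 9452 and 7242 counts at -0.36. ERN2, the gut form of IRE1, was past 0.5 at 0.72 with 25 and 41 counts, and its interval included 0 (-0.011 to 1.52).

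In the list of ATF4 and its outputs, CHAC1, which degrades glutathione, was past 0.5 with 34 and 57 counts at 0.76 (0.14 to 1.43), and NUPR1 was the lowest at -0.48 with 503 and 354. Of the 11 hepatocyte markers, most of them secretory cargo, 7 were lower and 4 higher, with ALB at 186609 and 112866 counts, which gives a log2 fold change of -0.70, and AFP at 273242 and 134862, a log2 fold change of -0.99. SERPINA1 stood at 0.036, and FGB, a fibrinogen chain, was higher at 0.84. Whether cargo and chaperone levels are linked was not tested.

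**Figure D5:**
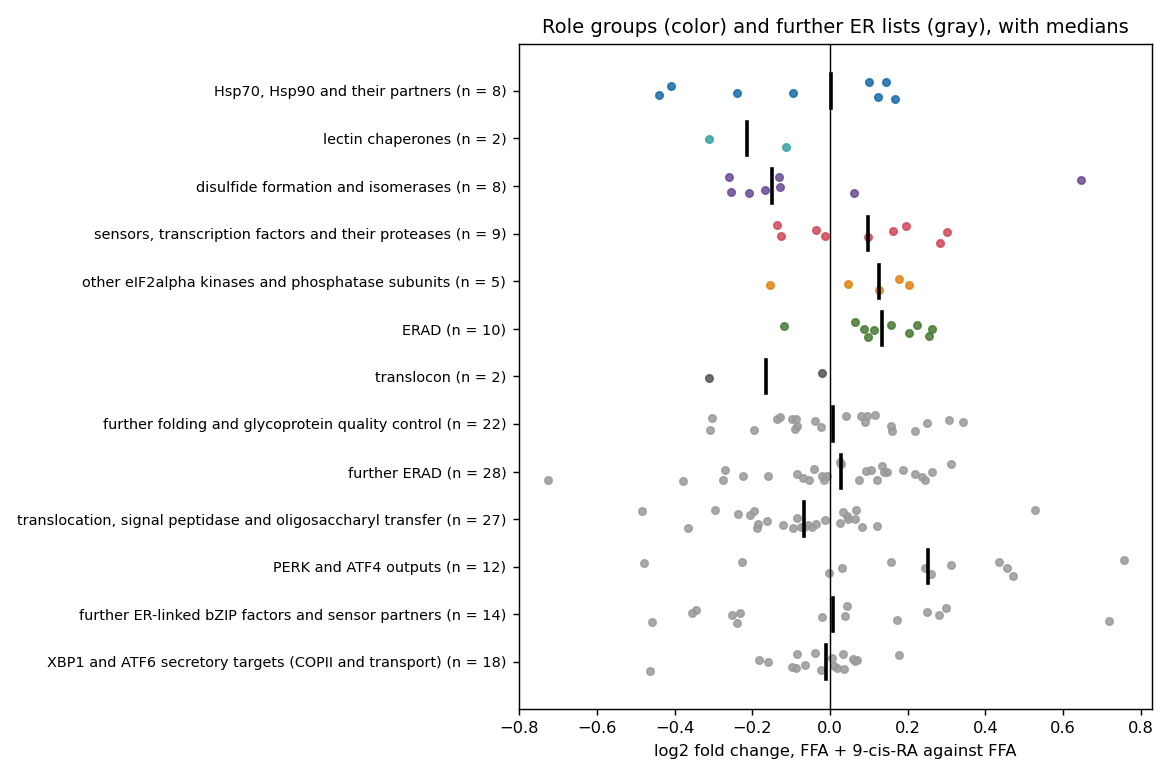
Log2 fold change (FFA + 9-cis-RA against FFA) of each gene by role group (color) and further list (gray), with the number of genes compared and the median as a black bar. Medians run from -0.21 for the lectin chaperones to 0.25 for the list of ATF4 and its outputs, and points of every list with more than 2 genes lie on both sides of 0.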

How the data were processed

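RNA of HepG2 cells was sequenced in 2 groups with 1 library each. The deposited files hold raw, whole-number fragment counts for each gene, which the authors made with featureCounts version 2.0.1 from stranded poly(A) libraries (strand setting 2), for pairs with both ends mapped and a checked fragment length. Multi-mapping and multi-overlapping fragments were left out, so genes with near-identical copies or overlapping neighbours are undercounted. Gene positions are GRCh38, and the aligner and annotation release are not given in the sources used here.

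Symbols were matched by Ensembl identifier for 60295 of 60623 entries. Size factors came from DESeq2 version 1.42.0, and TMM factors, as an alternative, from edgeR version 4.0.16. The minimum was 10 counts over both libraries, and the fold threshold was 0.5 on the log2 scale. Intervals are Clopper-Pearson intervals of each gene's share of counts, and the floor is 3 counts. Loess trends used a span of 0.3. No model could be fitted with 1 library per group, although the study names DESeq2. Levels are normalized counts per kilobase of exon length. The steps were tested on simulated data.

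The 45 genes and all lists were chosen with earlier results of these data known. Named were all 45 genes, and of each further list the highest, the lowest and those past 0.5. PPIB, SEC61A2, STT3A, STT3B, KDELR1, KDELR2, CREB3L3, ATF4, DDIT3, SERP1, FICD, ALG12 and EIF2A were named after their values were seen. So were ZNF17, CAMTA1, CLEC4F, GYS1, NUCB1, RAD9A and SHCBP1.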

Additional observations from a re-analysis of the deposited data

How the results depend on the processing

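No paired analysis was possible because each group has 1 library, and leaving out a library leaves nothing to compare. The count of ER genes above 0.5 was 1 under every scaling, pseudocount, filter and trend, and 0 with a threshold of 1 or with the whole interval past 0.5. None lay below -0.5 under any of them. The median of the 44 genes ran from 0.027 to 0.11 under the other scalings, pseudocounts, filters and trends and was 0.15 with TPM scaling (normalized to length and library), which was chosen after the data were seen, as was the GC trend. Of 484 values of single ER genes under an alternative, 88 moved past their counting interval; at most 3 genes changed sign under any alternative (XBP1, CREB3L2 and SEC61A1 with total counts and TPM).

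With TMM the lectin chaperone median was -0.19. With total counts the medians were 0.051 for the Hsp70 and Hsp90 group, -0.16 for lectin chaperones, -0.10 for disulfide enzymes, 0.17 for eIF2α kinases and phosphatases, -0.12 for the translocon pair and 0.040 for ER to Golgi transport. With the abundance trend removed they were 0.032 for the Hsp70 and Hsp90 group, -0.15 for lectin chaperones and 0.16 for eIF2α kinases and phosphatases. With the length trend removed the translocon pair was at -0.12 and the ATF4 list at 0.32, and with the GC trend removed it was at 0.31. The Hsp70 and Hsp90 group was at -0.016 and -0.0077 with these last trends removed, so its sign is not settled. With TPM scaling, which moves the median of all genes from -0.020 to 0.070, the medians were 0.092 for the Hsp70 and Hsp90 group, -0.12 for lectin chaperones, -0.060 for disulfide enzymes, 0.22 for eIF2α kinases and phosphatases, 0.22 for ERAD, -0.076 for the translocon pair, 0.12 for further ERAD, 0.024 for translocation and signal peptidase, 0.34 for the ATF4 list, 0.099 for ER-linked factors, 0.081 for ER to Golgi transport and -0.0040 for hepatocyte markers. These moves come from the scale or trend itself.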
